A study of Mus musculus with 40 samples.

Results

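The comparison was between the local and the whole-cell translatome of the RBP4-TRAP mouse line at 21 d. Its members are all libraries labelled with this line that were made by ribosome capture, 5 from the synaptoneurosome fraction (SynapTRAP, ST) and 5 from the whole homogenate (TRAP), or 10 of the 40 libraries of the series. Every gene off the mitochondrial chromosome was read, and 15872 of 41351 passed a limit of 0.5 cpm (counts scaled to library size) in at least 3 of the 10 libraries. ST was set against TRAP within each of 5 pools of animals, so that a positive log2 change means a larger share of the ribosome-bound RNA in ST.

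Neurons move part of their mRNA into dendrites and axons, where ribosomes near synapses translate it. Synaptoneurosomes are pinched-off pre- and postsynaptic compartments that reseal during homogenization and band on a density gradient together with other membrane fragments. TRAP pulls down ribosomes that carry a GFP-tagged large subunit protein, made only where Cre recombinase has been active, and the RNA bound to them is sequenced.

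In RBP4-TRAP mice the driver is an Rbp4-Cre transgene, which in cortex is active mainly in layer 5 pyramidal neurons, and it was crossed to a Cre-dependent EGFP-Rpl10a reporter. The VGAT-TRAP line, used here for contrast, carries Cre at Slc32a1, the vesicular GABA transporter of inhibitory neurons, and the same reporter. Each pool held 2 to 3 forebrains of both sexes, although the labels give cortex as the tissue, and 4 samples came from each pool, namely whole-cell homogenate RNA (WCH), TRAP, synaptoneurosome RNA (SNF) and ST. No group was treated, and a fraction of a pool is a bulk sample, so fewer cells of a type and less RNA per cell cannot be told apart.

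The 10 libraries held 16817037 to 22037703 counts, of which mitochondrial genes took 2.71% to 15.8% in ST and 0.0584% to 0.511% in TRAP. The 15.8% was in ST replicate 3, against at most 7.075% in the other ST libraries. SNF replicate 3 held 40.2%, against at most 18.84% in the other SNF libraries of the line. Markers of the targeted cells were higher in TRAP than in WCH. Summed over 12 excitatory and layer 5 markers, levels were 1934 to 3227 normalised cpm in TRAP and 1109 to 1653 in WCH, without overlap, whereas 12 GABAergic markers summed to 374 to 877 in TRAP and 1079 to 1326 in WCH. Between ST and SNF the excitatory and layer 5 sums overlapped, at 1276 to 2254 and 1218.5 to 1822. GABAergic markers summed to 780 to 1539 in ST and 1444 to 2929.5 in SNF, and oligodendrocyte markers to 33231 to 52282 and 14110 to 22806. What share of the ST RNA came from the targeted cells was not tested. Pool 5 stood apart. Its TRAP library had a median correlation with the other TRAP libraries of 0.924 against 0.974 to 0.978 for the rest (log2 levels of 8786 genes), and its ST library was the closest to TRAP (median 0.834 against 0.664 to 0.743). Oligodendrocyte markers summed to 5463 in its TRAP library and to 461 to 1030.5 in the other 4. In ST replicate 2 the 8 endothelial markers summed to 495 against 11.6 to 100.2 in the other 4. ST replicate 4 carried the most Slc32a1, at 49.6 against 12.6 to 20.8 normalised cpm. Results are given with all 5 pools, with values from fewer pools beside those that depended on them.

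Windows of the 3´ UTR are shown first, because the genes that carry them recur below. A single annotated 3´ UTR per gene was searched on the mRNA strand (GENCODE M21, GRCm38). Windows with 4 runs of at least 3 G, separated by 1 to 7 bases of any kind, can fold into G-quadruplexes, which FMRP (the fragile X protein, a repressor of synaptic translation) is known to bind. They are printed 5´ to 3´ with every stretch of at least 3 G in capitals, of which a long one can hold several runs and the G between them, for 3 genes that were higher in ST.
Shank3, chr15:89558541-89558567, plus strand: GGGGGGctGGGtggaaGGGGGtGGGGG
Dlg4, chr11:70045381-70045406, plus strand: GGGGagtGGGGaatgtGGGaGGGGGG
Dlg4, chr11:70045408-70045433, plus strand: GGGGGGGcaaaGGGtcaGGGGttGGG
Camk2n1, chr4:138458670-138458691, plus strand: GGGGatgcatGGGGGGGGGGGG
Such windows were present in 15.9% of 3748 genes higher in ST, 6.56% of 3325 lower genes and 11.3% of all 14142. Genes higher in ST also had longer 3´ UTRs, and the density was 0.110 windows per kb against 0.0640 and 0.0931. A match only says that these letters are present.

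With the pool as a block in edgeR's quasi-likelihood test (adjusted p up to 0.05), 3956 genes (24.9% of those tested) were higher in ST and 3583 (22.6%) lower. Counts of ST against TRAP in the gene lists below are to be read beside these shares. The 5 ST libraries lay wholly above the 5 TRAP libraries for 17.3% of genes and wholly below them for 16.6%. Changes toward ST were larger. Their median was 1.78 on the log2 scale against -1.11 for lower genes, and 1720 genes exceeded 2 upward against 194 downward. Without pool 5 there were 4484 higher and 4106 lower genes, which included 3799 of the 3956 and 3481 of the 3583. Without pool 4 the lower genes numbered 2388.

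Glial mRNAs were higher in ST throughout. Every marker of astrocytes (12 of 12), oligodendrocytes (12 of 12) and microglia (10 of 10) was higher in ST, with median log2 changes of 3.80, 3.46 and 3.60 against 0.0014 over all genes tested. These counts stayed the same without pool 5 and without pool 2. The plot of summed markers by library shows that the lists did not overlap between ST and TRAP. Oligodendrocyte markers summed to 33231 to 52282 normalised cpm in ST, astrocyte markers to 6159 to 33134 and microglial markers to 101 to 430.

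**Figure D1:**
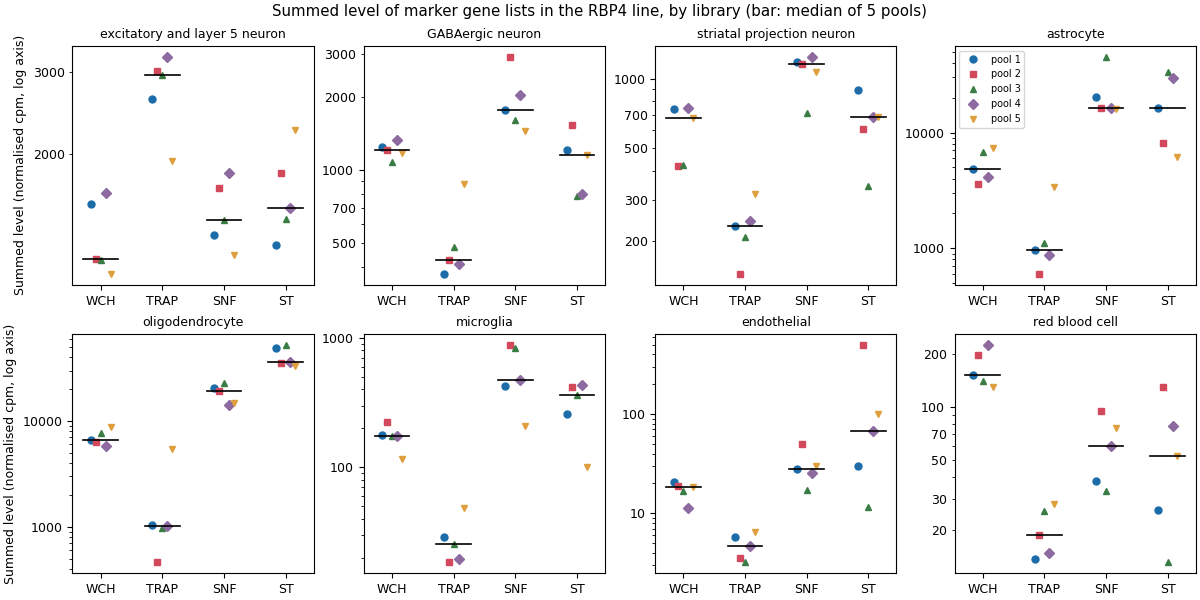
Summed level (normalised cpm, scaled over the 20 RBP4 libraries, log axis) of 8 marker lists in the WCH, TRAP, SNF and ST libraries of the RBP4 line, with 1 symbol per pool and a bar at the median of 5 pools. Oligodendrocyte markers reach 33231 to 52282 in ST and 461 to 5463 in TRAP, where the library of pool 5 is the highest.

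Mbp encodes a main structural protein of myelin and is translated in oligodendrocyte processes (chromosome 18, 82475146 to 82585637). It stood at 28712, 20754, 21735, 20884 and 17843 normalised cpm in ST pools 1 to 5 and at 231, 136, 212, 369 and 2376 in TRAP. All ST libraries were above all TRAP libraries, and TRAP pool 5 was the highest of its group. The log2 change was 6.08 (SE 0.70, adjusted p = 0.000192), and 6.68 without pool 5. Mobp, another myelin gene, changed by 5.49 (SE 0.63, adjusted p = 0.000201).

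Slc1a2 (chromosome 2, 102658659 to 102790784), the glutamate transporter of astrocytes, whose mRNA is found in their fine processes, had ST levels of 4782, 3437, 19714, 15521 and 2624 and TRAP levels of 429.7, 288, 514, 373 and 843. ST pools 3 and 4 were several times higher than the rest, and the groups did not overlap. Its log2 change was 3.90 (SE 0.56, adjusted p = 0.000457). All 8 genes listed as glial mRNAs of processes were higher in ST, with a median of 4.55. Of these Mbp, Mobp, Slc1a2, Glul and Gfap are also on the marker lists above, where every member was higher. The rise was therefore not particular to mRNAs of processes. The microglial receptor genes Cx3cr1 and P2ry12 changed by 4.12 (SE 0.72, adjusted p = 0.00154) and 3.18 (SE 0.46, adjusted p = 0.000584).

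Vascular genes moved with them, and their summed level was highest in ST pool 2. Of 8 endothelial markers 7 were higher in ST, with a median of 4.56. The count was again 7 without pool 2, 8 without pool 3 and 6 without pool 4. Flt1, a receptor for vascular growth factor, stood at 4.61, 117, 3.22, 13.5 and 20.2 in ST and at 0.518, 0.100, 0.672, 0.610 and 1.08 in TRAP. The ST library of pool 2 was far above the others. Its log2 change was 4.48 (SE 0.84, adjusted p = 0.0021), and 3.57 without pool 2 (adjusted p = 0.00145). The call of Slco1a4, an organic anion transporter of brain capillaries, at 4.37 (SE 1.01, adjusted p = 0.00581) was lost without pool 4 (3.78, adjusted p = 0.0581). Of 5 red blood cell markers 1 was higher, or 20% beside 24.9% of all genes. This count was 0 without pool 2 or pool 4 and 4 without pool 3.

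Markers of the targeted neurons were lower in ST. Of 12 excitatory and layer 5 markers 0 were higher and 8 lower, with a median of -1.30. Fezf2 (chromosome 14, 12341892 to 12345865), a transcription factor that specifies layer 5 subcerebral neurons, had 18.0, 18.2, 12.6, 19.4 and 45.2 normalised cpm in ST and 116, 143, 116, 160.5 and 69.8 in TRAP. ST pool 5 was the highest and TRAP pool 5 the lowest of their groups, which still did not overlap. The log2 change was -2.55 (SE 0.37, adjusted p = 0.000444). Pcp4, a calmodulin-binding peptide of layer 5 neurons, changed by -2.29 (SE 0.43, adjusted p = 0.00155) and Crym, which binds thyroid hormone, by -1.39 (SE 0.29, adjusted p = 0.00261). The 4 members that did not pass were Rbp4, Bcl11b (0.17), Tbr1 (0.02) and Slc17a7, the vesicular glutamate transporter, with 579.9, 1120.0, 791, 879.8 and 986 in ST and 570.2, 494, 609, 612 and 380.1 in TRAP. The ST library of pool 1 lay within the TRAP range and the change missed the threshold (0.70, SE 0.28, adjusted p = 0.0559). It passed without the block (adjusted p = 0.0162), in DESeq2 (0.0123) and under 4 other alternatives (0.00651 to 0.046). Rbp4 itself, whose regulatory sequence drives Cre, did not pass (-0.08, SE 0.30, adjusted p = 0.828).

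Most markers of neurons outside the targeted class were higher in ST. Among 12 GABAergic markers 9 were higher and 0 lower (median 1.25), and among 8 markers of striatal projection neurons 5 were higher and 0 lower (median 1.59). The GABAergic count was 7 without pool 1, 2 or 4. Slc32a1 (chromosome 2, 158610767 to 158615748) had 20.8, 17.2, 12.6, 49.6 and 13.9 normalised cpm in ST and 1.96, 1.5, 3.52, 2.27 and 4.38 in TRAP. ST pool 4 was well above the other ST libraries, and even the lowest ST library exceeded every TRAP library. The log2 change was 2.96 (SE 0.42, adjusted p = 0.000394). Npy and Penk, both neuropeptide genes, changed by 1.49 (SE 0.31, adjusted p = 0.0024) and 2.07 (SE 0.33, adjusted p = 0.00063). Gad1, which makes GABA, changed by 0.94 (SE 0.31, adjusted p = 0.027), but TRAP pool 5 at 291.2 exceeded every ST library and the call was lost without pool 1, 2, 3 or 4 (adjusted p 0.115, 0.112, 0.0849 and 0.0621), and without the block (0.199). For Sst, at 0.97 (SE 0.30, adjusted p = 0.0179), it was lost without pool 1 or 2 (0.0862 and 0.0768). Ppp1r1b, the dopamine-regulated phosphatase inhibitor of striatal neurons, did not pass (0.04, SE 0.24, adjusted p = 0.91). Nor did Pvalb (-0.07), Cort (0.37), Dlx2 (1.06), Drd2 (1.35) or Rgs9 (0.19).

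Of 15 classic dendritic mRNAs, 12 were higher in ST, 1 was lower and 2 did not pass, with a median of 1.77. Without pool 5 there were again 12 and 1. Glial markers rose in the same libraries as described above, and their part in the levels of these genes was not tested.

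Shank3 (chromosome 15, 89499623 to 89560261), a master scaffold of the excitatory postsynaptic density, stood at 90.3, 66.4, 151, 161 and 89.0 normalised cpm in ST and 8.0, 7.6, 9.0, 12.7 and 17.7 in TRAP. The groups were far apart and no pool broke the pattern. The log2 change was 3.34 (SE 0.28, adjusted p = 6.78e-05), about 10.1-fold, and 3.59 without pool 5. Camk2a (chromosome 18, 60925618 to 60988152), the alpha subunit of the kinase that drives synaptic potentiation, had 5229, 2572, 3832, 5946 and 2897 in ST and 374, 520.5, 621, 617 and 1297 in TRAP. TRAP pool 5 was at least 2 times any other TRAP library but stayed below ST. Its change was 2.64 (SE 0.40, adjusted p = 0.000488). Map2 (chromosome 1, 66175273 to 66442583), the microtubule protein of dendrites, had 1178, 1180.2, 1409, 1218 and 929 in ST and 426, 322, 325, 288 and 372 in TRAP, without overlap. It changed by 1.77 (SE 0.26, adjusted p = 0.000452). The lower member was Nrgn, neurogranin, a calmodulin buffer of spines, at -1.19 (edgeR adjusted p = 0.00548). Actb, the beta-actin gene, spread from 2392 to 21736 in ST and did not pass (-0.36, SE 0.40, adjusted p = 0.47), nor did Bdnf (-0.47, adjusted p = 0.238).

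**Figure D2:**
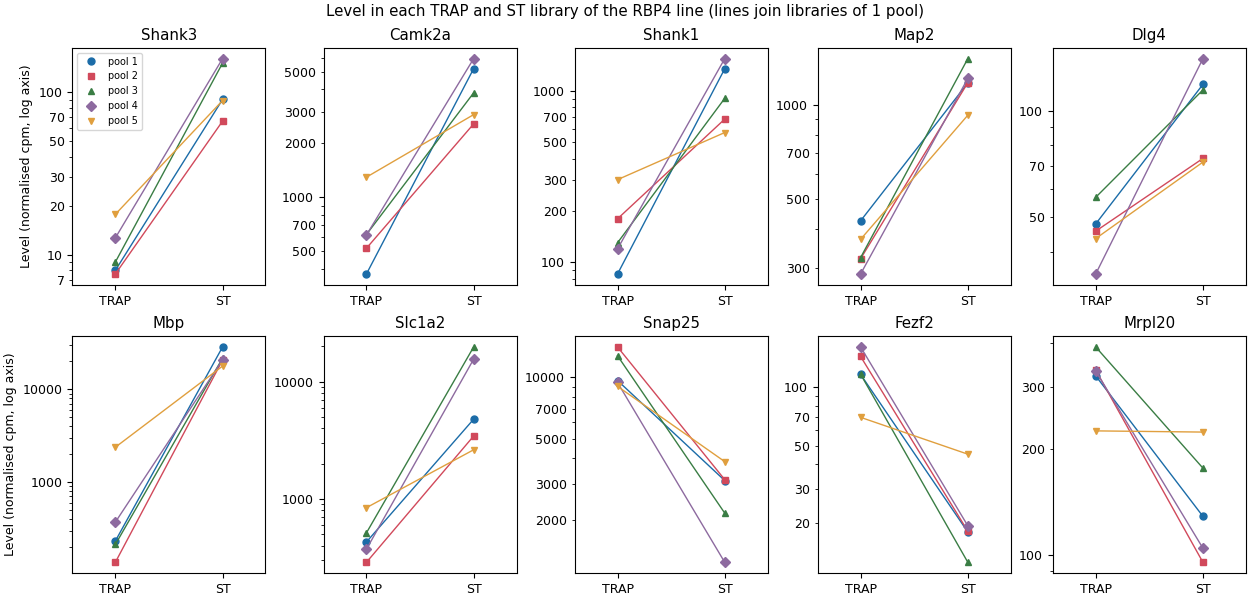
Level (normalised cpm, log axis) of 10 genes in each TRAP and ST library of the RBP4 line, with lines joining the libraries of 1 pool. The first 7 genes go up from TRAP to ST and the last 3 go down, and the line of pool 5 is flatter than the others for Mbp, Camk2a, Fezf2 and Mrpl20.

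Postsynaptic scaffold genes were higher in ST in 11 of 16 cases and lower in 2, Homer1 (-0.84, edgeR adjusted p = 0.0211) and the inhibitory scaffold gephyrin gene Gphn (-0.88, adjusted p = 0.00645). The 3 Shank genes, which link receptor complexes to actin, were all higher. These genes, Dlg4, Dlgap3 and Dlgap4 are also on the dendritic list, so the counts of the lists are not independent. Shank1 (chromosome 7, 44310253 to 44358351) stood at 1343, 683, 903, 1538 and 570.3 in ST and 85.4, 179, 129.8, 119.6 and 303 in TRAP, with no overlap. Its change was 2.68 (SE 0.44, adjusted p = 0.000835), and that of Shank2 1.51 (SE 0.31, adjusted p = 0.00242). Among the adaptor genes that bind them, Dlgap3 changed by 2.49 (adjusted p = 0.000114), Dlgap1 by 1.28 (SE 0.28, adjusted p = 0.00342) and Homer2 by 2.57 (adjusted p = 0.000102). Dlg4 (chromosome 11, 70017085 to 70045532), which encodes PSD-95, had 119, 73.3, 114, 140.2 and 71.6 in ST and 47.9, 45.8, 57.0, 34.6 and 43.6 in TRAP. The lowest ST value lay above the highest TRAP value, though the change was smaller than that of the Shank genes, at 1.14 (SE 0.25, adjusted p = 0.00295). The lower count was 1 without pool 1, 2 or 4.

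A list of 23 well-known FMRP target mRNAs shares members with the dendritic and scaffold lists above. It also shares some with the receptor, channel and vesicle release lists below, so its count is not independent of theirs. Of its members 16 were higher and 0 lower, with a median of 1.14. Without pool 5 there were 18 and 1. Ank2, which encodes an ankyrin of the membrane skeleton, had 6904, 1857, 3727, 1914 and 2702 in ST and 199, 168, 195, 272 and 1619.9 in TRAP, where pool 5 was far above the rest. It changed by 3.34 (SE 0.59, adjusted p = 0.00142). Apc, a microtubule-associated tumour suppressor, changed by 3.26 (edgeR adjusted p = 0.000194), and the motor gene Kif1a by 1.54 (SE 0.36, adjusted p = 0.00487). The 7 members that did not pass included Map1b (0.31).

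Receptor and channel genes were higher in ST or did not pass, and 0 were lower. This held for 14 of 20 ionotropic glutamate receptor and auxiliary subunit genes (median 0.94), for 6 of 12 GABA-A receptor subunit genes (median 0.60) and for 23 of 28 pore subunits of voltage-gated channels (median 0.92). Without pool 1 or 4 the glutamate receptor count was 9, without pool 2 the GABA-A count was 3 and without pool 4 the channel count was 15. Without pool 5, 2 glutamate receptor genes were lower.

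Grin2b, an NMDA receptor subunit of young synapses, stood at 593, 958, 655, 887 and 370.1 in ST and 325, 263, 282, 294 and 363 in TRAP. The groups came within a few cpm of each other in pool 5 without overlap, and the change was 1.12 (SE 0.30, adjusted p = 0.00908). Of the AMPA receptor genes Gria1 changed by 0.96 (SE 0.26, adjusted p = 0.00897) and Gria2 did not pass (0.30, SE 0.31, adjusted p = 0.442). Grin2c, a subunit also known from astrocytes, had the largest change of the list at 4.03 (adjusted p = 0.000449). The sodium channel gene Scn8a changed by 1.03 (SE 0.29, adjusted p = 0.0115), with an adjusted p of 0.0503 without pool 4. Scn2a changed by 0.91 (SE 0.28, adjusted p = 0.0185) and was lost without pool 2 or 4 (0.077 and 0.0621). The potassium channel gene Kcna1 stood at 315, 380.4, 449, 367 and 386 in ST and 191, 162, 237, 174 and 196 in TRAP, without overlap, and changed by 0.99 (SE 0.22, adjusted p = 0.00382).

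Of 13 genes of CaM kinases and CaMKII inhibitors 4 were higher and 4 lower (median 0.18), or 30.8% each way beside 24.9% and 22.6% of all genes. The lower count fell to 1 without pool 1 or 2 and to 2 without pool 4. Camk2a was higher, as were both inhibitors of the same enzyme, Camk2n1 at 1.80 (SE 0.34, adjusted p = 0.00146) and Camk2n2 at 1.19 (adjusted p = 0.00272). The beta subunit gene Camk2b did not pass, with 419, 276, 275, 468 and 366 in ST and 345, 379, 414, 463 and 486 in TRAP (-0.23, SE 0.24, adjusted p = 0.438). Camk1g was lower at -1.45 (adjusted p = 0.000711).

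Presynaptic genes were also mixed. Of 20 genes of synaptic vesicles and release, 7 were higher and 7 lower (median -0.35), or 35% each way beside 24.9% and 22.6% of all genes. Among the higher members were the large active zone proteins that organise release sites, Bsn (1.84, adjusted p = 0.000784), Pclo (1.13, adjusted p = 0.00788), Rims1 (2.24, adjusted p = 0.000399) and Unc13a (1.11, adjusted p = 0.00689). The lower members included genes of the fusion machinery. Snap25 (chromosome 2, 136713453 to 136782428), a SNARE protein of the plasma membrane, stood at 3111, 3143, 2153, 1235 and 3854 in ST and 9635, 14081, 12748, 9426 and 9023 in TRAP. Every ST library was below every TRAP library. Its change was -2.10 (SE 0.35, adjusted p = 0.000812). Nsf, which takes SNARE complexes apart, changed by -1.55 (adjusted p = 0.00143), and Rab3a, a vesicle GTPase, by -1.42 (SE 0.27, adjusted p = 0.00168). The vesicle genes Syt1 and Vamp2 did not pass, at 0.46 (SE 0.30, adjusted p = 0.214) and -0.63 (SE 0.29, adjusted p = 0.0864). Vamp2 was lower without pool 5 (-0.84, adjusted p = 0.0151), without the block (adjusted p = 0.0396) and under 4 other alternatives (0.00573 to 0.0479).

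Of 21 genes of neuropeptides and dense core vesicle proteins 12 were higher and 0 lower (median 0.97). Of these 12, Sst, Npy, Vip, Tac1 and Penk are also on the GABAergic or striatal marker lists, whose part in the count was not tested. Cpe, a peptide-processing enzyme, stood at 7644, 7252, 12959, 13183 and 7542 in ST and 2575, 1870.3, 2350.0, 2459 and 2535 in TRAP, with no overlap, and changed by 2.0 (SE 0.31, adjusted p = 0.000608). Vgf, a granin-like neuronal protein, changed by 1.72 (adjusted p = 0.00052). Scg5 did not pass (0.37, SE 0.34, adjusted p = 0.382) nor did Cort, the cortistatin gene (0.37, SE 0.32, adjusted p = 0.354). Of 25 translocon and chaperone genes of the endoplasmic reticulum 7 were higher, near the 24.9% of all genes, and 2 lower (median 0.58). The higher count was 2 without pool 1, 1 without pool 2 or 4 and 11 without pool 3, and Calr, at 0.90 (SE 0.28, adjusted p = 0.02), and Hspa5, at 0.91 (SE 0.30, adjusted p = 0.027), lost their calls without pool 1, 2 or 4 (adjusted p between 0.0537 and 0.106). Chgb, at 0.94 (SE 0.32, adjusted p = 0.0288), lost its call without pool 1, 2, 4 or 5 (0.0744, 0.117, 0.0588 and 0.0508). Canx did not pass (0.65, SE 0.28, adjusted p = 0.0741).

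Nuclear genes of the mitochondrial ribosome, which translates the few mRNAs of the organelle, were lower in 70 of 74 cases and higher in 0, with a median of -1.09. Without pool 2 the count was 55. Mrpl20 (chromosome 4, 155802878 to 155809975) stood at 128, 95.1, 176, 104 and 223 in ST and 322, 334, 389, 332 and 225 in TRAP. The pool 5 libraries were nearly equal at 223 and 225, while the other pools differed at least 2 times. Its change was -1.20 (SE 0.29, adjusted p = 0.00511). Mrps14 changed by -1.27 (SE 0.32, adjusted p = 0.00682). Mrpl42, at -1.31 (SE 0.38, adjusted p = 0.0147), was lost without pool 1, 2 or 4 (0.0545, 0.0692 and 0.0598).

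Of 83 nuclear genes of the respiratory chain and ATP synthase, 42 were lower and 2 higher (median -0.82), with 23 lower without pool 2 and 27 without pool 4. The 3 with the highest counts did not pass, namely Atp5a1 (-0.58, SE 0.28, adjusted p = 0.0993), Cox4i1 (0.17, SE 0.29, adjusted p = 0.641) and Ndufa4 (-0.80, SE 0.34, adjusted p = 0.0685). Ndufa4 was lower without pool 5 (-1.12, adjusted p = 0.00366) and, with adjusted p of 0.0224 to 0.0414, under 5 other alternatives. Atp5a1 was lower without the block (adjusted p = 0.0361), in DESeq2 (0.0408) and in the fit of all 20 RBP4 libraries (0.00697). Proteasome subunit genes were lower in 24 of 37 cases and higher in 2 (median -0.70), with 13, 15 and 15 lower without pools 2, 3 and 4. Psma7 changed by -0.86 (SE 0.25, adjusted p = 0.0131), a call that was lost without pool 2 (0.0571), while Psmb1 and Psmc5 did not pass (-0.43 and -0.45). The share of lower genes exceeded the 22.6% of all genes for these 3 lists.

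Cytoplasmic ribosomal protein genes did not follow. Of 79 tested 65 did not pass, 7 were higher and 7 lower (median -0.14), and these small counts moved between 3 and 14 when 1 pool was left out. Rpl4 and Rps3 were at 0.58 and 0.61 (adjusted p = 0.0677 and 0.0712) and Rps14 at 0.04. Rps3 was higher without pool 2 (0.83, adjusted p = 0.0342), and without the block both Rpl4 and Rps3 were (adjusted p = 0.0214 and 0.0247). These genes have many processed pseudogenes and only uniquely aligned reads were counted, so their levels are uncertain. Of 63 initiation and elongation factor genes 22 were lower and 7 higher (median -0.28), the latter 4 without pool 4. These are 34.9% and 11.1%, beside 22.6% and 24.9% of all genes. The higher members included Eef2, the translocase of elongation, at 1.45 (SE 0.33, adjusted p = 0.00407), and Eef1a1 at 0.81 (SE 0.26, adjusted p = 0.0246), which was lost without pool 1 or 4 (0.106 and 0.103). Eif4g2 did not pass (-0.05). Among 336 Zfp zinc finger genes, mostly transcription factors, 129 were lower and 32 higher (median -0.65), the latter 21, 17 and 20 without pools 1, 3 and 4. Lower members were 38.4% and higher ones 9.52%, beside the same shares of all genes. The member with the highest counts, Zfp365, went against the list at 1.66 (SE 0.26, adjusted p = 0.000624). Zfp91, at 0.82 (SE 0.24, adjusted p = 0.0144), was lost without pool 3 or 4 (0.0545 and 0.0549), and Zfp706, at -0.82 (SE 0.28, adjusted p = 0.0297), without pool 1, 2 or 4 (0.127, 0.122 and 0.0908).

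**Figure D3:**
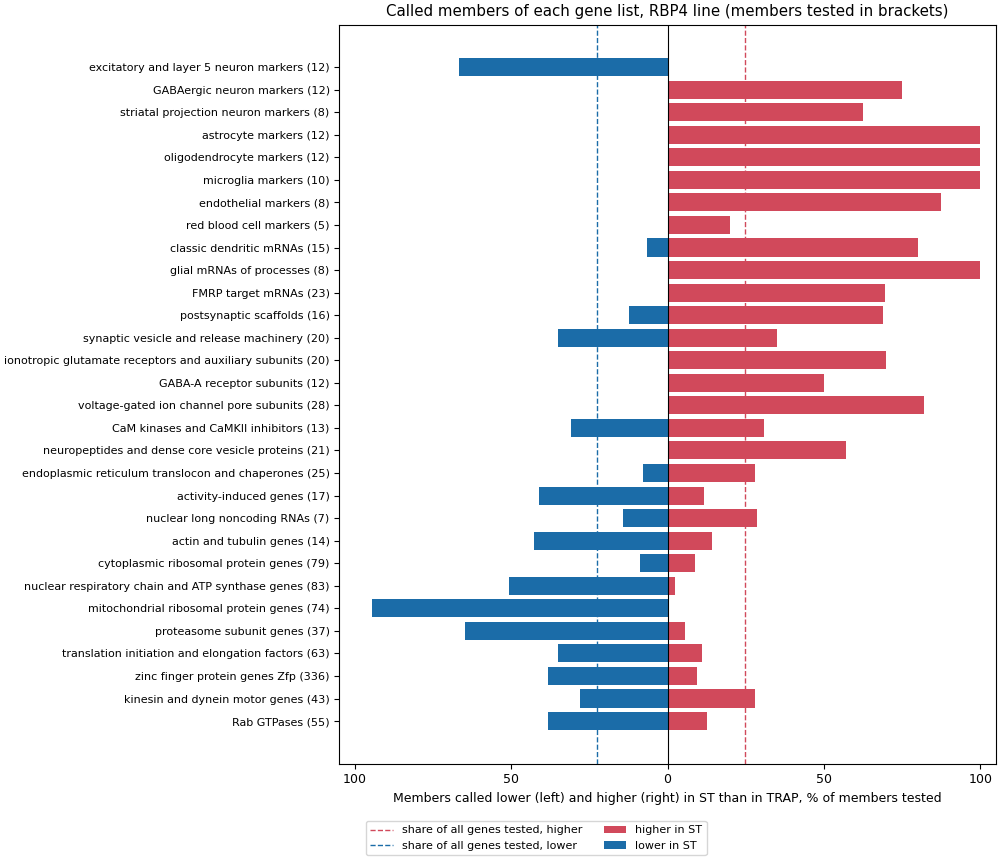
Share of tested members (%) called higher in ST (right) and lower in ST (left) for the 30 gene lists, with the number tested in brackets and dashed lines at the shares of all genes tested, 24.9% higher and 22.6% lower. Astrocyte, oligodendrocyte and microglia markers reach 100% on the right, and mitochondrial ribosomal protein genes have 70 of 74 members on the left.

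Of 17 activity-induced genes 7 were lower and 2, Arc and Nr4a2, higher (median -0.63). These are 41.2% and 11.8%, beside 22.6% and 24.9% of all genes. Egr1, an activity-induced transcription factor, stood at 113, 196, 53.4, 116 and 155 in ST and 426, 591, 296, 628 and 243 in TRAP, with every ST library lower, and changed by -1.82 (SE 0.30, adjusted p = 0.000774). Fos and Junb changed by -1.48 (adjusted p = 0.000857) and -1.70 (adjusted p = 0.014), and Dusp1, a phosphatase of MAP kinases, by -1.69 (SE 0.30, adjusted p = 0.00108). Arc (chromosome 15, 74669083 to 74672570), a dendritic mRNA whose protein removes AMPA receptors, went the other way. It stood at 161, 182, 48.8, 213 and 94.9 in ST and 44.1, 64.0, 14.4, 63.1 and 57.6 in TRAP. Pool 3 was the lowest in both groups and ST was higher in 5 of 5 pools, although ST pool 3 overlapped the TRAP range. The change was 1.53 (SE 0.24, adjusted p = 0.000575).

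Tubulin and actin genes were lower in 6 of 14 cases and higher in 2 (median -0.63). These are 42.9% and 14.3%, beside 22.6% and 24.9% of all genes. The lower count was 3 without pool 2, 3 or 4, where the lower genes over all numbered 2477, 2782 and 2388. Tubb4a, at -0.86 (SE 0.31, adjusted p = 0.0363), was lost without pool 2, 3, 4 or 5 (0.0831, 0.107, 0.143 and 0.0511), and Tubb5 did not pass (-0.49, SE 0.28, adjusted p = 0.161). Of 43 kinesin and dynein genes 12 were higher and 12 lower, or 27.9% each way beside 24.9% and 22.6% of all genes, the latter count 6 to 7 without pool 2, 3 or 4. Kif5a, a motor of axonal and dendritic transport, stood at 2239.6, 1387, 1938, 2518 and 817 in ST and 187, 155, 233, 189 and 462 in TRAP, without overlap, and changed by 2.93 (SE 0.43, adjusted p = 0.000429). Kif1b changed by 1.53 (SE 0.33, adjusted p = 0.00297). Rab GTPases were lower in 21 of 55 cases (38.2%) and higher in 7 (12.7%), with a median of -0.46, beside the same shares of all genes. Without pool 2 there were 12 lower. Rab6a of the Golgi changed by -1.16 (SE 0.30, adjusted p = 0.00792), and its paralogue Rab6b did not pass (0.45, SE 0.27, adjusted p = 0.182).

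Of 7 nuclear long noncoding RNAs tested 2, Kcnq1ot1 and Neat1, were higher and 1 lower. These are 28.6% and 14.3%, beside 24.9% and 22.6% of all genes. Kcnq1ot1 runs antisense to Kcnq1, and without strand the reads of such a pair cannot be told apart. Kcnq1ot1 stood at 148, 112, 115, 110.0 and 129 in ST and at 11.3, 3.75, 8.17, 8.37 and 268 in TRAP, where pool 5 exceeded every ST library. Its change of 3.31 (SE 0.77, adjusted p = 0.00612) was lost without pool 4 (3.18, adjusted p = 0.0611) and without the block (1.03, adjusted p = 0.435). Malat1 did not pass (-0.02, SE 0.38, adjusted p = 0.97), and Snhg11 was lower (-1.15, SE 0.30, adjusted p = 0.00801).

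The 10 genes with the largest rise among those with at least 10 normalised cpm and no overlap were Mbp, Lpar1, Myo6, Kank2, Bcas1, Tns3, Mobp, Amot, Epas1 and Ahnak, with changes between 5.26 and 6.08. Lpar1, a receptor for lysophosphatidic acid found on oligodendrocytes, stood at 467, 327, 693, 315 and 279.6 in ST and 4.55, 4.25, 4.71, 4.66 and 26.5 in TRAP, or 5.99 (SE 0.57, adjusted p = 0.000114). Bcas1, a gene of myelinating oligodendrocytes, changed by 5.59 (SE 0.52, adjusted p = 0.00011) and Myo6, a motor that walks to the minus end of actin, by 5.93 (SE 0.93, adjusted p = 0.000962). Epas1 encodes a hypoxia-inducible transcription factor of vascular and glial cells and changed by 5.36 (SE 0.60, adjusted p = 0.000221).

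The 10 with the largest fall by the same rule were Pde6c, Amdhd1, A2ml1, Ovol2, Fezf2, Tnnc1, Il12a, Gucy2g, Neurod6 and Trbc2, with changes between -2.87 and -2.40. Neurod6, a transcription factor of cortical excitatory neurons, stood at 46.6, 83.1, 25.3, 22.6 and 71.8 in ST and 245, 354, 195, 271 and 143 in TRAP, or -2.41 (SE 0.34, adjusted p = 0.00039). Pde6c lies next to Rbp4 on chromosome 19 (38132781 to 38183947 and 38116620 to 38125321). It stood at 2.06, 1.36, 0.749, 0.856 and 4.64 in ST and 14.7, 11.8, 9.57, 16.2 and 7.04 in TRAP, with a change of -2.87 (SE 0.48, adjusted p = 0.000888). Tnnc1, a troponin gene, changed by -2.53 (SE 0.36, adjusted p = 0.00042) and A2ml1, a protease inhibitor gene, by -2.69 (SE 0.41, adjusted p = 0.00066). Of the other genes looked up, Gsr did not pass (-0.30, SE 0.25, adjusted p = 0.337), and Capn11 was below the limit with at most 1 count in ST and 23 in TRAP pool 5.

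Genes higher in ST were longer. The median coding length was 1670 bases for 3748 higher genes, 1038 for 3325 lower genes and 1497 for 7069 that did not pass. Median 3´ UTR lengths were 1354, 734 and 988 bases, and median GC contents of the 3´ UTR 46.0%, 43.1% and 44.4%. These describe 1 transcript per gene with the longest coding sequence. Among biotypes, protein-coding genes were 26.5% higher and 23.5% lower, against 16.0% and 20.5% of 381 lincRNA genes and 5.58% and 8.12% of 394 processed pseudogenes.

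To set the local translatome beside total RNA of the same compartments, ST less TRAP was compared with SNF less WCH in 1 fit over the 20 RBP4 libraries. The 2 contrasts share pools but no library, and means of WCH, TRAP, SNF and ST given for this comparison are scaled over these 20 libraries. SNF less WCH alone had 20.8% of 17046 genes higher and 21.8% lower. The difference between the contrasts passed for 2770 genes upward (16.3%) and 1942 downward (11.4%). Scaled to library size only, the split was 3818 to 805, with the median of all genes shifted from 0.034 to 0.28. Without pool 4 the counts were 1238 and 505, without pool 3 1610 and 842, and without pool 2 1705 and 1055.

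Shank3 stood at 13.1 ± 3.69 normalised cpm in WCH, 11.8 ± 4.75 in TRAP, 22.9 ± 4.29 in SNF and 118 ± 44.9 in ST (mean ± SD, n = 5). SNF less WCH was 0.84 (SE 0.25, adjusted p = 0.0124) and the further rise in ribosome-bound RNA 2.44 (SE 0.36, adjusted p = 0.000188). For Camk2a the values were 947 ± 191, 736 ± 396, 1820.3 ± 139 and 4302 ± 1528, with differences of 0.97 (SE 0.27, adjusted p = 0.00657) and 1.65 (SE 0.38, adjusted p = 0.00448). Map2 did not pass between SNF and WCH (-0.07, SE 0.19, adjusted p = 0.786), but its difference between contrasts was 1.81 (SE 0.27, adjusted p = 0.000217). Below, further higher or further lower means that the difference between the contrasts passed upward or downward. A gene that was further lower can still have been higher in ST than in TRAP. Of the dendritic list 12 of 15 members were further higher and 2 further lower, and of the scaffolds 10 of 16 and 0. Receptor and channel genes were already higher in total SNF RNA, in 19 of 20 glutamate receptor, 11 of 12 GABA-A and 27 of 28 channel genes, and 2, 0 and 1 of them were further higher while 3, 3 and 2 were further lower. The endoplasmic reticulum list had 7 members higher and 2 lower between ST and TRAP. Of its 25 members 23 were higher in SNF, 0 further higher and 13 further lower. Calr, for example, had 1.90 (SE 0.22, adjusted p = 1.57e-05) in total RNA and -0.99 (SE 0.30, adjusted p = 0.0205) for the difference.

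Glial markers were higher in SNF than in WCH in 11 of 12 astrocyte, 8 of 12 oligodendrocyte and 10 of 10 microglia cases. Their ST less TRAP exceeded SNF less WCH in 9, 11 and 7 cases. This alone does not place ST above SNF. Oligodendrocyte sums did lie wholly above, at 33231 to 52282 in ST and 14110 to 22806 in SNF, while astrocyte and microglia sums overlapped. Median sums in ST and SNF were 16202 and 16351 (astrocyte), 36304 and 19411 (oligodendrocyte) and 360 and 476 (microglia). Those in TRAP and WCH were 963 and 4837, 1007 and 6661, and 25.7 and 175. Mbp rose from 969.6 ± 530.2 in WCH to 3322 ± 832 in SNF, and from 721 ± 1053 in TRAP to 23079 ± 4017 in ST, a difference of 3.79 (SE 0.66, adjusted p = 0.00061). Mitochondrial ribosomal protein genes were lower in SNF in 18 of 74 cases, and in 45 their ST less TRAP was below SNF less WCH. Respiratory chain genes were higher in SNF in 18 of 83, and in 54 their ST less TRAP was below SNF less WCH. The SNF counts are near the shares of all genes (21.8% lower and 20.8% higher), whereas the difference between contrasts passed downward for 11.4% of all genes. Fezf2 fell in both contrasts and further in the ribosome-bound one, at -0.90 (SE 0.28, adjusted p = 0.0133) and -1.59 (SE 0.39, adjusted p = 0.00648). The 5 largest differences upward, of genes averaging 10 cpm or more in some fraction, were Acta2 (6.01, SE 1.09, adjusted p = 0.000848), Ly6a (4.80, SE 0.82, adjusted p = 0.000543), Ly6c1 (4.78, SE 0.78, adjusted p = 0.000405), Kank2 (4.31, SE 0.61, adjusted p = 0.000143) and Efhd1 (4.31, SE 0.60, adjusted p = 0.000135). Acta2, Ly6a and Ly6c1 are genes of vessels, and ST pool 2 held 62.4, 56.5 and 80.1 normalised cpm of them against at most 19.7, 16.6 and 23.2 in the other ST libraries (scaled over the 10 ST and TRAP libraries). The 5 largest downward were Bola1 (-2.50, SE 0.39, adjusted p = 0.000289), Gng13 (-2.34, SE 0.41, adjusted p = 0.00063), Pstpip1 (-2.19, SE 0.31, adjusted p = 0.000135), Atp6v0c (-2.11, SE 0.47, adjusted p = 0.00382) and Pde6c (-2.11, SE 0.52, adjusted p = 0.00698). Gng13 was lost without the block (adjusted p = 0.203).

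To ask which changes belong to the RBP4 line, ST less TRAP was compared between the RBP4 and VGAT lines in 1 fit over 20 libraries, with levels scaled over those. In the VGAT line 29.5% of 16900 genes were higher in ST and 32.1% lower. The difference between lines passed for 596 genes upward in RBP4 (3.53%) and 394 downward (2.33%). Without VGAT pool 1, 2 or 4 the downward count was 234, 224 or 254. Of the glial lists, 0 of 12 oligodendrocyte and 0 of 10 microglia markers passed the threshold, and 1 of 12 astrocyte markers was lower in RBP4. Mbp changed by 6.78 (SE 0.67, adjusted p = 4.48e-06) in the VGAT line, and the difference was -0.77 (SE 0.78, adjusted p = 0.688). No member of the scaffold list passed (0 of 16), and of the dendritic list 1 of 15 did. Counts this small are near the 3.53% and 2.33% of all genes. They cannot show that the glial, scaffold or dendritic lists behaved alike in the lines. For Shank3 the VGAT change was 2.82 (SE 0.28, adjusted p = 3.3e-06) and the difference 0.45 (SE 0.38, adjusted p = 0.615).

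Neuronal markers went opposite ways. All 12 GABAergic and all 8 striatal markers had a higher ST less TRAP in the RBP4 line, while 9 of 12 excitatory and layer 5 markers had a lower one and 1 a higher one. Gad1 stood at 123 ± 109.7 in RBP4 TRAP and 179 ± 28.1 in RBP4 ST, but at 2813 ± 551 in VGAT TRAP and 274 ± 107 in VGAT ST. The difference was 4.30 (SE 0.43, adjusted p = 2.44e-05). Fezf2 stood at 127 ± 34.8 and 22.7 ± 13.1 in RBP4 TRAP and ST, and at 7.61 ± 5.97 and 16.3 ± 1.83 in VGAT, with a difference of -3.96 (SE 0.52, adjusted p = 0.000415). Slc17a7 changed by 3.56 (SE 0.39, adjusted p = 5.97e-06) in VGAT and differed by -2.93 (SE 0.50, adjusted p = 0.00232). For each of these genes the ST levels of the lines were closer together than their TRAP levels. Of the neuropeptide list 8 of 21 were higher and 2 lower in RBP4. The 5 largest differences upward were Akr1c18 (5.52, SE 0.51, adjusted p = 1.89e-05), Six3 (5.13, SE 0.41, adjusted p = 8.88e-06), Sp8 (4.97, SE 0.63, adjusted p = 0.00035), Isl1 (4.87, SE 0.80, adjusted p = 0.00195) and Crabp1 (4.81, SE 0.65, adjusted p = 0.000382), of which Six3, Sp8 and Isl1 are transcription factors of forebrain inhibitory neurons. In RBP4 these genes stayed at or below 16.1 normalised cpm (scaled over the 10 ST and TRAP libraries of that line). Isl1 held at most 1.73 and Crabp1 at most 2.67. Between ST and TRAP in RBP4 alone, Isl1 (1.08) and Crabp1 (1.19) did not pass. A difference between lines does not by itself place the change in RBP4. The 5 largest downward were Fezf2, Myl4 (-3.85, SE 0.55, adjusted p = 0.000765), Dkkl1 (-3.59, SE 0.74, adjusted p = 0.0105), Dcn (-3.59, SE 0.65, adjusted p = 0.00507) and Tnnc1 (-3.47, SE 0.55, adjusted p = 0.00171). The call of Dkkl1 was lost with no filter on low counts (adjusted p = 0.0587). Dcn did not pass between ST and TRAP in RBP4 alone (0.36).

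**Figure D4:**
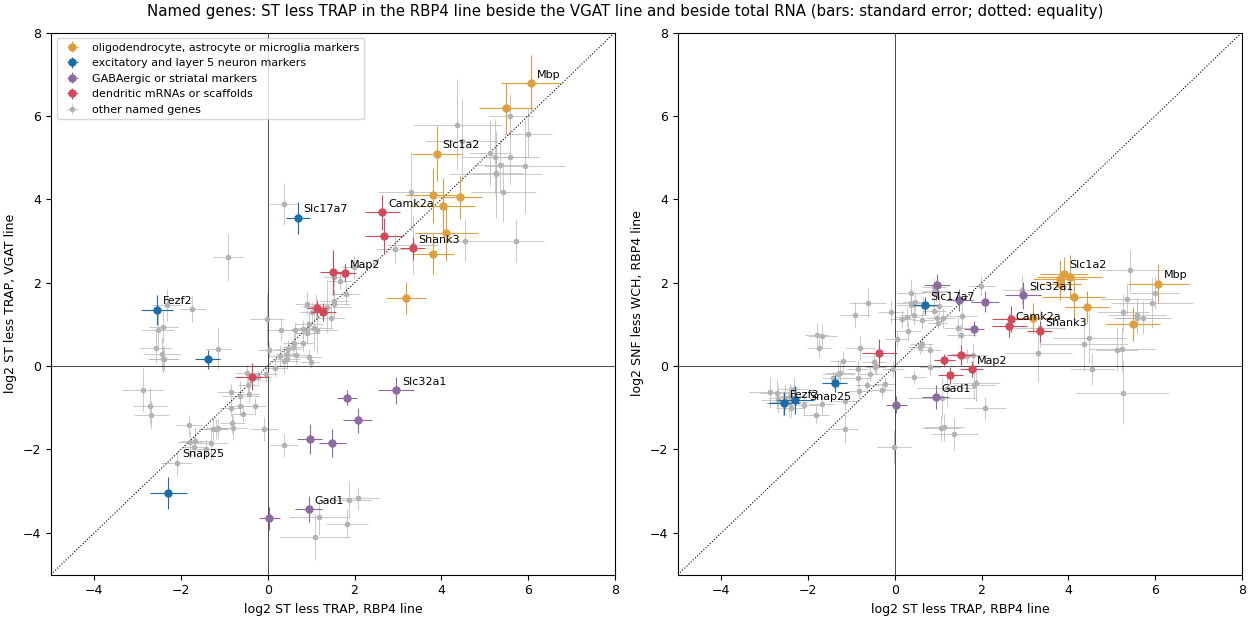
log2 ST less TRAP of the named genes in the RBP4 line (x axis) against log2 ST less TRAP in the VGAT line (left) and log2 SNF less WCH in the RBP4 line (right), with bars of 1 standard error and a dotted line of equality. Mbp and Shank3 lie below the line on the right, while Gad1 and Slc32a1 lie below it and Fezf2 and Slc17a7 above it on the left.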

How the data were processed

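Ribosome-bound and total RNA of 5 pools per line was made into cDNA with a low-input kit that does not mark strand. The authors used STAR 2.0.4b (Ensembl assembly) and featureCounts 1.4.5, kept reads with 1 place in the genome, and deposited counts, CPM and RPKM per gene and library. The build was not given in the sources used here, but 40281 of 40331 genes overlapped their GRCm38 (GENCODE M21) positions. The deposited CPM (relative to all counts of a library) and RPKM (CPM per kb) were recomputed from the counts as a check and were not tested.

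Counts off the mitochondrial chromosome were scaled by TMM and tested with edgeR 4.0.16 (R 4.3.3), by robust quasi-likelihood with the pool as a block, after a limit of 0.5 cpm in at least 3 libraries, with Benjamini-Hochberg adjustment and a threshold of 0.05. The study's model had no block. The block was used because the protocol collected the 4 fractions of a replicate in parallel from 1 pool. Deviations of same-numbered ST and TRAP libraries had a mean correlation of -0.052 (-0.336 to 0.114, 8786 genes) against 0.006 for different numbers. Normalised cpm are TMM-scaled, over 10 libraries unless stated. Adjusted p without another name are from this test.

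Alternatives were DESeq2 1.42.0, other scalings, filters and tests, no block and leaving out each pool. Depth was 16817037 to 22037703 counts per library, so that 1 count was 0.0455 to 0.0646 cpm. Scripts were tested on simulated data with 100 genes changed 2-fold and 100 changed 8-fold. Between ST and TRAP 24 of the 2-fold and 90 of the 8-fold changes were recovered. For the difference between lines these counts were 11 and 91, and for the difference from SNF less WCH 15 and 87. A gene that did not pass can therefore still have changed by 2-fold. The named genes were the 10 with the largest change in each direction without overlap and with a mean of at least 10 cpm, the 3 most abundant members of each list, genes the study names, and the 5 largest differences each way between contrasts. Other list members were named after their values were seen. The members and lists were chosen with earlier results of these data known. Some genes and a sequence are not reported here.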

Additional observations from a re-analysis of the deposited data

Results flagged for a closer look

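Of 254 levels and marker sums tested in the groups of 5, 48 had 1 library whose gap to the nearest other library exceeded the critical value of Dixon's test for 5 samples. Chance gives about 1 in 20 for independent, normally distributed values. These values share libraries, and some sums hold genes that were also tested alone, so the count cannot be read against that rate. Of these, 28 were in the TRAP library of pool 5, and values are normalised cpm. In TRAP replicate 5 of the RBP4 line these were the sum of GABAergic neuron markers (877), the sum of astrocyte markers (3374), the sum of oligodendrocyte markers (5463), Mbp (2376), Lpar1 (26.5), Myo6 (133), Bcas1 (22.6), Tns3 (9.4), Mobp (708), Amot (18.5), Epas1 (8.71), Ahnak (6.4), Gad1 (291), Aldoc (1351), Slc1a3 (407), Cx3cr1 (8.46), Camk2a (1297), Ank2 (1619.9), Kif1a (1033), Shank2 (257), Snhg11 (1626), Kcnq1ot1 (268), Eef2 (622), Kif1b (829), Kif5a (462), Rab6a (739), Efhd1 (2.07) and Gng13 (88.2). In ST replicate 2 of the RBP4 line these were the sum of endothelial markers (495), Slco1a4 (163), Flt1 (117), Ly6c1 (80.1), Calr (1324), Hspa5 (1350.1) and Ly6a (56.5). In ST replicate 3 of the RBP4 line these were Bcas1 (1049), Slc1a3 (2440.5), Camk2n1 (8445), Zfp365 (1690.1) and Sp8 (16.1). In ST replicate 5 of the RBP4 line these were Amdhd1 (6.35), Fezf2 (45.2), Pcp4 (419) and Gng13 (48.0). In ST replicate 1 of the RBP4 line these were Mobp (8958) and Psmc5 (390.2). In ST replicate 4 of the RBP4 line it was Slc32a1 (49.6). In TRAP replicate 3 of the RBP4 line it was Rps14 (542).

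The difference between the lines in log2 ST less TRAP passed the interaction test (edgeR, adjusted p of at most 0.05) for 26 of the 123 named genes. Of all genes 3.53% passed upward and 2.33% downward. Akr1c18, Six3, Sp8, Isl1, Crabp1, Fezf2, Myl4, Dkkl1, Dcn and Tnnc1 were the largest differences in this test and were named for that. The count of 26 can therefore not be read against the shares of all genes. The difference was positive, with a higher value in the RBP4 line, for Sst (2.64), Npy (3.25), Gad1 (4.30), Penk (3.30), Ppp1r1b (3.62), Kcna1 (0.81), Cort (2.20), Slc32a1 (3.46), Akr1c18 (5.52), Six3 (5.13), Sp8 (4.97), Isl1 (4.87) and Crabp1 (4.81). It was negative for Ovol2 (-3.08), Fezf2 (-3.96), Tnnc1 (-3.47), Il12a (-2.81), Gucy2g (-2.65), Neurod6 (-3.42), Trbc2 (-2.64), Slc17a7 (-2.93), Crym (-1.62), Myl4 (-3.85), Dkkl1 (-3.59), Dcn (-3.59) and Pstpip1 (-3.19).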

How the results depend on the processing

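Of 2157 values of named genes under the alternatives, 2020 kept their direction and side of the threshold, 54 lost and 65 gained a call, and 18, of 5 genes that passed in neither fit, changed sign. With 1 pool left out the log2 change ranged from -0.21 to 0.074 for Eif4g2, -0.33 to 0.27 for Malat1, -0.13 to 0.22 for Ppp1r1b, -0.30 to 0.17 for Rbp4 and -0.079 to 0.23 for Rps14. Malat1 was at 0.0099 with 1 cpm in at least 5 libraries, 0.016 in DESeq2 and 0.016 with its size factors, Rbp4 at 0.015 without the block, and Ppp1r1b and Rps14 at -0.078 and -0.079 with library size only. Genes higher and lower in ST ranged from 2963 to 4484 and from 2388 to 4106 when 1 pool was left out. For the difference from SNF less WCH the ranges were 1238 to 3802 and 505 to 2816, and for the difference between lines 415 to 839 and 224 to 507. With library size only the median of all genes between ST and TRAP was -0.11, and 805 genes were lower in the difference from SNF less WCH. The lower genes between lines numbered 696 in DESeq2 and 676 in the likelihood ratio test. The cause of these moves was not tested. Without the replicate block there were 4261 higher and 3848 lower genes in ST, 740 and 475 in the difference between lines, and 2162 and 1431 in the difference from SNF less WCH. Of 900 list counts 81 moved by over 1.5 times. With 5 pools and 1 library of each that stood apart, changes near the threshold are the least certain.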
